A study of Mus musculus with 16 samples.

Results

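The BCL2 family and its companions among the death regulators were followed as 10 genes: Mcl1, Bcl2a1a, Bcl2a1b, Bcl2a1d, Bcl2l1, Bcl2l11, Bax, Pmaip1, Cflar and Ripk1. They were found by symbol in the deposited count table, where all 10 listed symbols had a row among 13832 genes. Of the 10, 9 passed the filter on low counts, which 9529 genes of the table passed. Those 9 had at least 24 counts in every library, so none passed through a late time point alone. The remaining gene, Bcl2a1a, is described by its counts.

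BCL2 proteins set the threshold at which mitochondria release cytochrome c and start the caspase cascade. Pro-survival members (MCL1, A1 from the Bcl2a1 genes, and BCL-XL from Bcl2l1) hold the effector BAX and its relative BAK in check, and BH3-only proteins such as BIM (Bcl2l11) and NOXA (Pmaip1) bind and neutralise the pro-survival proteins. A second layer acts at receptors. There cFLIP, the product of Cflar, resembles caspase-8 without its protease activity and restrains it, and the kinase RIPK1 relays signals from the TNF receptor and from Toll-like receptors towards survival, apoptosis or necroptosis. In macrophages, lipopolysaccharide (LPS) activates NF-kB through Toll-like receptor 4, and several pro-survival genes are known NF-kB targets.

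RAW264.7 is a macrophage-like line from a mouse tumour induced by Abelson leukaemia virus, so its cells are transformed. Cells were untreated or given 100 ng/ml LPS for 15, 30, 45, 60, 75 or 90 min or for 16 h. At each of these 8 times, 1 library of fragmented cytoplasmic RNA (input) and 1 of ribosome footprints (the RNA stretches that ribosomes shield from nuclease) came from the same lysate, giving 16 groups of 1 library. Untreated cells were sampled at 0 min only, so effects of LPS and of handling or culture time cannot be told apart.

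Every library held 6702930 to 6702932 counts, a common total that says nothing of the original depth. All 8 macrophage markers had counts in every library, with a sum of 11871 to 15447 in input and 18193 to 26896 in footprints. The sums rest mostly on abundant genes such as Cd68, Csf1r and Lyz2. Mrc1 had only 12 to 26 input and 6 to 23 footprint counts, and Itgam 17 to 71 and 30 to 96. Of the markers of other cells, 1 of 3 for T cells, 1 of 3 for B cells and 2 of 3 for epithelium had a row, and each of these lists summed to 0 to 6 in any library. None of the 3 fibroblast markers had a row, so fibroblasts were not checked. Ratios between libraries are scaled by TMM factors and carry 95% intervals from counts, which cover counting error only and have no replicate check. Tests use edgeR's quasi-likelihood fit over time with Benjamini-Hochberg adjustment over all 9529 genes, called at an adjusted p under 0.05. In bulk RNA, a loss of cells cannot be told apart from less RNA per cell.

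Within 90 min the input RNA of 7 of the 9 tested genes rose, against 14.9% of all tested genes called higher, and Bax and Ripk1 did not pass the test. Footprints of the same 7 genes rose, with 12.2% of all genes called higher. The median log2 change of the 9 genes was 2.27 in input and 2.24 in footprints, beside -0.04 and -0.07 over all tested genes. At 16 h, 6 of the 9 were still above untreated in both materials, where 28.6% of all genes were called higher in input and 25.9% in footprints. The called genes include Bcl2a1b and Bcl2a1d, near-identical copies whose reads may be shared, so their calls are not independent. The members were picked with earlier results of these data known, so these counts describe them and support nothing further.

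**Figure D1:**
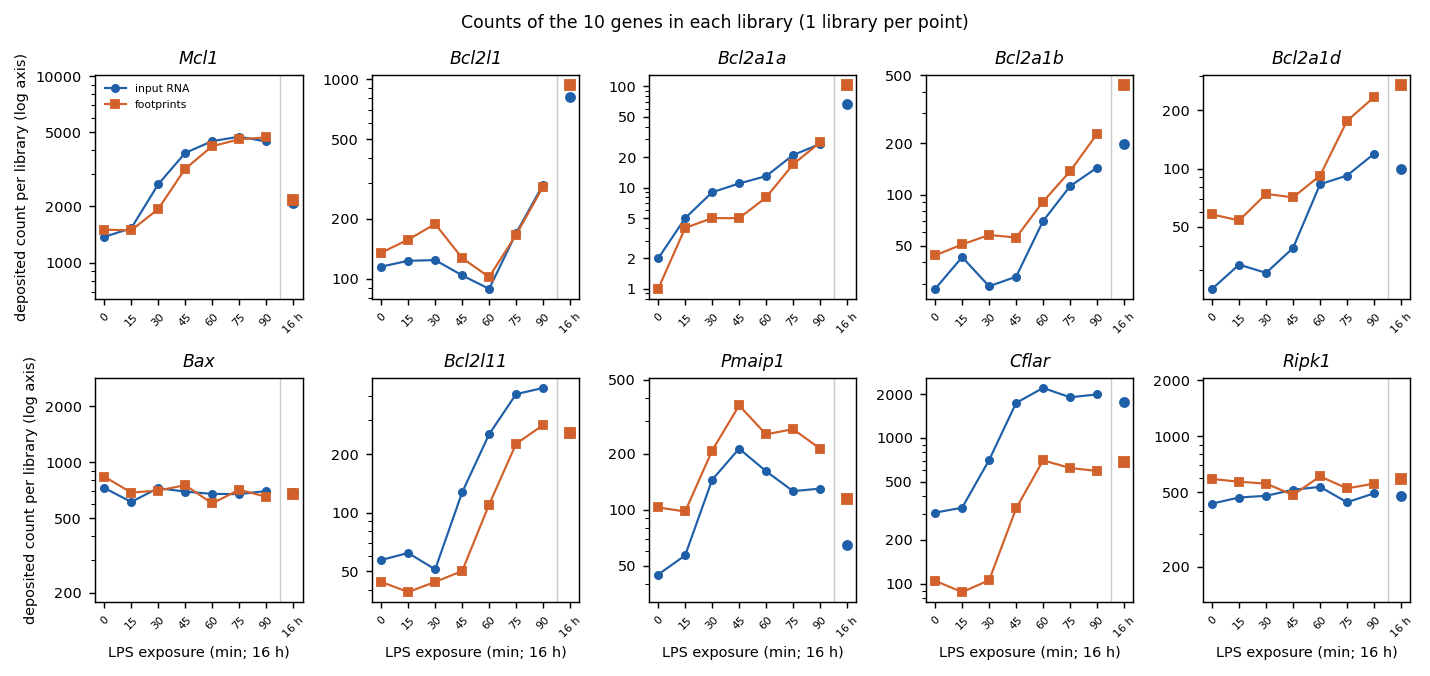
Deposited counts of the 10 genes in each of the 16 libraries, on log axes whose range differs between panels (x axis, minutes of LPS, with 16 h set apart). Blue circles are input RNA and orange squares footprints, 1 library each; Mcl1 reached 4733 input counts at 75 min while Bax stayed between 612 and 728.

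As counted, Mcl1 had more footprints per coding length than the other pro-survival genes in every library, and it rose within 90 min. The gene lies at chr3:95658788-95663176 on the plus strand (GRCm38, GENCODE M21). MCL1 is a short-lived protein, so its amount depends on continued synthesis as well as on turnover, and protein was not measured here. Its input counts were 1374, 1528, 2628, 3873, 4481, 4733 and 4466 from 0 to 90 min, and 2077 at 16 h. Its footprint counts were 1503, 1489, 1937, 3184, 4207, 4584 and 4694, and 2171 at 16 h. All libraries from 30 min on lay above the untreated one, and the 16 h libraries lay between the 15 min and 45 min values in both materials. At 90 min input stood at 3.54-fold (3.33 to 3.76) and footprints at 3.78-fold (3.57 to 4.01) of untreated. The fitted log2 rise within 90 min was 2.07 ± 0.15 (SE) for input (adjusted p = 1.3e-05) and 2.24 ± 0.18 for footprints (adjusted p = 2.4e-05).

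By 16 h Mcl1 had come part of the way back. Input was 2.10-fold (1.99 to 2.21) and footprints 2.43-fold (2.31 to 2.56) lower than at 90 min. The 16 h library remained above the fitted untreated level by 0.94 ± 0.18 log2 units for input (adjusted p = 0.00083) and by 0.84 ± 0.20 for footprints (adjusted p = 0.0049). The input call was lost when time entered as a straight line (0.62, adjusted p = 0.081).

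The 3 Bcl2a1 genes encode A1, a small pro-survival protein of blood cells, and sit as near-identical copies on mouse chromosome 9. In GRCm38, Bcl2a1d lies at chr9:88723285-88731914 on the minus strand, Bcl2a1a at chr9:88956900-88962419 on the plus strand and Bcl2a1b at chr9:89199209-89207827 on the plus strand (GENCODE M21). Their coding sequences are 516 nt long and differ at 12 positions in all. Bcl2a1a and Bcl2a1b are 97.87% identical, Bcl2a1a and Bcl2a1d 98.64%, and Bcl2a1b and Bcl2a1d 98.84%. The first 75 coding bases hold 6 of the 12 differing positions, shown in capitals because reads can be told apart only where they cross one.
Bcl2a1a: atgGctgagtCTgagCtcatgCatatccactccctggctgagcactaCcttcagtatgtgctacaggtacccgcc
Bcl2a1b: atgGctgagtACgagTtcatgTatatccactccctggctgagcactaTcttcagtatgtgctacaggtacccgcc
Bcl2a1d: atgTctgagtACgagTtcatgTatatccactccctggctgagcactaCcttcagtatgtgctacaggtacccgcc

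Of the 488 stretches of 29 nt in each coding sequence, a length typical of a footprint, 14.34% were found in no other transcript for Bcl2a1a, 6.352% for Bcl2a1b and 2.869% for Bcl2a1d. The sources used here do not say how reads with several matches were assigned. The split between the copies is therefore uncertain, and their sum is the firmer quantity. Had reads with several matches been left out, the sum too would be too low against other genes. Summed input counts were 54, 80, 67, 83, 166, 225 and 290 from 0 to 90 min and 365 at 16 h. Summed footprint counts were 103, 109, 137, 132, 191, 330 and 488, and 815 at 16 h. The sums to 45 min lay below all later ones, and the 16 h sum was the highest in both materials. As 1 row they rose by 2.61 ± 0.23 log2 units for input (adjusted p = 3.1e-05) and by 2.49 ± 0.15 for footprints (adjusted p = 1e-06) within 90 min. At 16 h the sum exceeded the fitted untreated level by 2.88 ± 0.25 for input (adjusted p = 2.8e-06) and by 3.05 ± 0.16 for footprints (adjusted p = 4.7e-08).

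Taken singly, Bcl2a1b went from 28 to 144 input counts and from 44 to 227 footprint counts between 0 and 90 min, and reached 199 and 441 at 16 h. Bcl2a1d went from 24 to 119 and from 58 to 233, and held 99 and 270 at 16 h. Within 90 min the fitted rise of Bcl2a1b was 2.49 ± 0.30 for input (adjusted p = 0.00022) and 2.53 ± 0.18 for footprints (adjusted p = 4.1e-06). Bcl2a1d rose by 2.61 ± 0.29 (adjusted p = 2e-04) and 2.35 ± 0.20 (adjusted p = 1.5e-05). Without the 90 min library the rises were smaller but still called, at 1.85 in input and 1.74 in footprints for Bcl2a1b and at 1.69 in footprints for Bcl2a1d.

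Bcl2a1a had 2, 5, 9, 11, 13, 21 and 27 input counts to 90 min and 67 at 16 h, and 1, 4, 5, 5, 8, 17 and 28 footprint counts and 104 at 16 h. It missed the filter because only 3 footprint libraries reached 10 counts. Its 16 h to untreated ratio was 37.3 (9.94 to 315) in input and 112 (19.6 to 4462) in footprints, limits that rest on 2 and 1 untreated counts. Fitted without the filter, it rose by 3.33 ± 0.51 for input (adjusted p = 0.00092) and by 3.98 ± 0.56 for footprints (adjusted p = 0.00042).

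The start sites of the Bcl2a1 copies carry similar bases upstream. Windows from 250 bases before to 50 after each annotated start (RefSeq, GRCm38.p6) were available for 9 of the 10 genes, as 13 windows. Both strands were searched for AP-1 (TGANTCA), CRE (TGACGTCA), STAT (TTCNNNGAA), FOXO (GTAAACA), ETS/PU.1 (GAGGAAGT, added after the Bcl2a1 windows had been read), the NF-kB consensus and the CArG box of SRF. Each Bcl2a1 window held 1 AP-1 match and, a few bases downstream, 1 ETS/PU.1 match; 7.81% and 3.2% of 32851 windows of this length hold these letters. The stretches below are shown because the summed counts of the 3 copies rose, with the AP-1 letters in capitals, 5′ to 3′ on the strand of the gene. They span chr9:88956775-88956831 (plus), chr9:89199084-89199140 (plus) and chr9:88731933-88731989 (minus).
Bcl2a1a: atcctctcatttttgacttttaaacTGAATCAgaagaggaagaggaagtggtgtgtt
Bcl2a1b: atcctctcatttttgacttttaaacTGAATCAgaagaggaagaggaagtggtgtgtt
Bcl2a1d: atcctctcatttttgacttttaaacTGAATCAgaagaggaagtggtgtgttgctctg
The stretches of Bcl2a1a and Bcl2a1b are identical and that of Bcl2a1d differs from them after the AP-1 letters. The AP-1 letters began 120, 164 and 114 bases before the start site. A match of letters describes the sequence and is not a measured site of binding. No window of Mcl1, Cflar or Bax held any of the searched letters.

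Bcl2l1, which encodes BCL-XL, rose late. The gene lies at chr2:152780668-152831728 on the minus strand. Its input counts were 115, 123, 124, 104, 89, 169 and 296 from 0 to 90 min and 816 at 16 h. Its footprint counts were 135, 157, 188, 127, 102, 166 and 289, and 936 at 16 h. From 15 to 60 min every input library lay within counting error of the untreated one, and the 16 h library was the highest in both materials. Footprints at 30 min stood at 1.51-fold (1.21 to 1.90) of untreated and those at 45 and 60 min did not differ from it beyond counting error. Between 90 min and 16 h Bcl2l1 stood 2.82-fold (2.47 to 3.24) higher for input and 2.88-fold (2.52 to 3.30) higher for footprints. At 16 h it exceeded the fitted untreated level by 2.76 ± 0.23 log2 units for input (adjusted p = 2.1e-06) and by 2.60 ± 0.32 for footprints (adjusted p = 3.7e-05).

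Within 90 min the fitted rise of Bcl2l1 was 1.16 ± 0.23 for input (adjusted p = 0.0011) and 0.86 ± 0.31 for footprints (adjusted p = 0.048). Both rest on the 90 min library: without it they were 0.32 (adjusted p = 0.26) and 0.11 (adjusted p = 0.95). The footprint call was also lost with total-count scaling, a linear or square-root time term, DESeq2, or without the 15 min, 45 min, 75 min or 16 h library. A match to the NF-kB consensus, which 8.46% of windows hold, lay in 1 of the 3 start-site windows of Bcl2l1, 242 bases before the start and inside the span of the gene (chr2:152830925-152830967, minus strand). This was the only match to that consensus in the 13 windows searched, and those of the Bcl2a1 copies held none. The stretch is shown because Bcl2l1 is a known NF-kB target, with the matched letters in capitals.
Bcl2l1: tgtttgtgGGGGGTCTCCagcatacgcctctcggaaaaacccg

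Among the genes that promote death, Bcl2l11 rose and Bax did not. Bcl2l11 encodes BIM, a BH3-only protein that binds all pro-survival BCL2 proteins, from chr2:128126038-128162547 on the plus strand. Its input counts were 57, 62, 51, 127, 253, 407 and 438 to 90 min and 257 at 16 h. Its footprint counts were 44, 39, 44, 50, 110, 226 and 282, and 257 at 16 h. Input left the untreated level at 45 min and footprints at 60 min, and both stood highest at 90 min. At 90 min input was at 8.36-fold (6.33 to 11.2) and footprints at 7.76-fold (5.63 to 10.9) of untreated. The fitted rise was 3.75 ± 0.35 in input (adjusted p = 5.7e-05), the largest input value among the 9 tested members, and 3.38 ± 0.28 in footprints (adjusted p = 1.4e-05). With a cubic term it was 2.96 in input, and without the 90 min library 2.57 in footprints, both still called.

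At 16 h Bcl2l11 input was 1.66-fold (1.42 to 1.95) below its 90 min level. It remained above the fitted untreated level by 2.77 ± 0.42 (adjusted p = 0.00021), and footprints by 2.87 ± 0.32 (adjusted p = 1.8e-05). A FOXO match, in capitals below, lay 227 bases before the upstream of its 2 start sites (chr2:128125788-128125842, plus strand), letters that 3.65% of windows hold. It is shown because FOXO factors are known regulators of this gene.
Bcl2l11: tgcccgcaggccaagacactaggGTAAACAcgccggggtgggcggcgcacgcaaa

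Pmaip1, which encodes the BH3-only protein NOXA, rose in a pulse. NOXA binds MCL1, and in human cells it is known to promote its degradation. Its input counts were 45, 57, 145, 213, 161, 126 and 130 to 90 min and 65 at 16 h. Its footprint counts were 103, 98, 208, 363, 254, 271 and 213, and 115 at 16 h. The 45 min library was the highest in both materials, above the next highest by 1.30-fold (1.06 to 1.61) for input and 1.28-fold (1.09 to 1.50) for footprints. At 45 min input was at 4.93-fold (3.56 to 6.96) and footprints at 3.89-fold (3.12 to 4.89) of untreated. The fitted rise within 90 min was 2.27 ± 0.34 for input (adjusted p = 0.0018) and 2.03 ± 0.31 for footprints (adjusted p = 0.0017).

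At 16 h neither material was called for Pmaip1, at 0.87 ± 0.44 for input (adjusted p = 0.11) and 0.58 ± 0.38 for footprints (adjusted p = 0.23). A straight line in time, which cannot follow a pulse, gave no call within 90 min (input 1.34, adjusted p = 0.13; footprints 1.50, adjusted p = 0.068). Without the untreated library the input rise was 1.46, still called, and without the 90 min library the 16 h input difference was called (adjusted p = 0.043).

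Bax, whose product forms pores in the outer mitochondrial membrane, kept a narrow range. The gene lies at chr7:45461697-45466898 on the minus strand. Its counts ran from 612 to 728 in input and from 601 to 837 in footprints over the 8 times, with the highest input and footprint count in the untreated libraries. The fitted change within 90 min was 0.13 ± 0.10 for input (adjusted p = 0.56) and -0.09 ± 0.12 for footprints (adjusted p = 0.79). At 16 h it was 0.14 ± 0.12 (adjusted p = 0.32) and -0.13 ± 0.14 (adjusted p = 0.45). The Bax reading frame shares part of its sequence with an annotated gene, Gm45808, and 69.89% of its 29 nt stretches were unique to it.

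Cflar (chr1:58711508-58758884, plus strand) rose within 90 min and was still high at 16 h. Its input counts were 308, 333, 706, 1737, 2201, 1899 and 1987 to 90 min and 1765 at 16 h. Its footprint counts were 105, 88, 106, 329, 702, 623 and 594, and 686 at 16 h. Input at 30 min was already at 2.32-fold (2.03 to 2.66) of untreated, while footprints at 30 min stood at 1.10-fold (0.830 to 1.45) and left the untreated level only at 45 min. At 60 min both materials were at their highest, 7.55-fold (6.70 to 8.54) for input and 7.64-fold (6.22 to 9.47) for footprints. The fitted rise was 3.31 ± 0.32 for input (adjusted p = 8.7e-05) and 3.72 ± 0.47 for footprints (adjusted p = 0.00056).

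Cflar was nearly as high at 16 h as at 90 min. It exceeded the fitted untreated level by 3.10 ± 0.35 log2 units for input (adjusted p = 2.2e-05) and by 3.53 ± 0.52 for footprints (adjusted p = 0.00016). The input value was 2.47 with a linear time term and the footprint value 2.89 with a cubic term, both still called. Against the untreated library itself, Cflar at 16 h stood at 6.39-fold (5.65 to 7.23) for input and 7.03-fold (5.72 to 8.72) for footprints. The 16 h to 90 min ratio was 0.910 (0.853 to 0.970) in input and 1.03 (0.918 to 1.15) in footprints. The Cflar reading frame has 60.04% of its 29 nt stretches to itself and shares the others with the annotated gene Gm9845.

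Ripk1 (chr13:34002363-34037147, plus strand) was called in neither material and neither period. Its counts ran from 436 to 536 in input and from 485 to 610 in footprints, with overlapping ranges of early and late libraries. The fitted change within 90 min was 0.29 ± 0.11 for input (adjusted p = 0.13) and 0.18 ± 0.12 for footprints (adjusted p = 0.48). At 16 h it was 0.30 ± 0.12 in input (adjusted p = 0.056), which was called without the 75 min or the 90 min library, and 0.10 ± 0.14 in footprints (adjusted p = 0.57). Of its 2 start-site windows, 1 held a pair of STAT matches (TTCCCGGAA), 108 and 11 bases before the start, letters that 8.3% of windows hold.

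**Figure D2:**
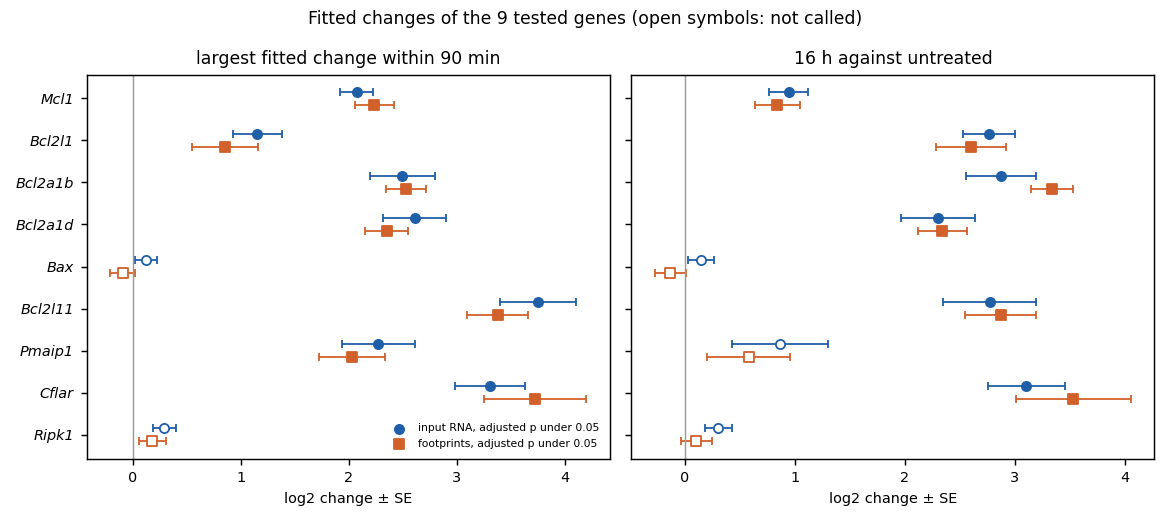
Fitted log2 changes with standard errors for the 9 tested genes, in input RNA (blue) and footprints (orange). The left panel gives the largest fitted change within 90 min, the right panel 16 h against the fitted untreated level. Open symbols did not pass an adjusted p of 0.05: Bax and Ripk1 are open in both panels, and Pmaip1 (0.87 and 0.58) is open on the right.

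The order of onset differed between the genes. Taking the first time from which every later library to 90 min lay above untreated beyond counting error, input left the untreated level at 15 min for Mcl1, 30 min for Cflar and Pmaip1, 45 min for Bcl2l11, 60 min for Bcl2a1b and Bcl2a1d, and 75 min for Bcl2l1. Bcl2a1a did so at 45 min, on few counts. Ripk1 met the criterion at 90 min because its 75 min input library stood at 1.09-fold (0.952 to 1.25) of untreated. Its input had stood at 1.23-fold (1.08 to 1.41) at 45 min and 1.30-fold (1.14 to 1.48) at 60 min. Footprints met the criterion at the next sampled time after input for Mcl1, Cflar, Bcl2l11 and Bcl2a1a. They met it at the same time as input for Pmaip1, Bcl2a1b, Bcl2a1d, Bcl2l1 and Ripk1. Whether Ripk1 met it at 90 min depends on the scaling in both materials. At 90 min its footprints stood at 1.14-fold (1.02 to 1.29) of untreated with TMM factors and at 0.944-fold with total counts. Its input stood at 1.24-fold (1.08 to 1.41) with TMM factors and at 1.14-fold with total counts. Bax met the criterion in neither material. The neighbours in this order are separated by 1 library, so the order has no replicate check.

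Ribosome density (footprints over input, scaled so that the typical gene is at 1) sets the footprints of a gene against its input RNA. Which features were counted is not stated, so a level of density measures loading only as far as input reads, like footprints, were counted over coding sequence. Its change over time was called for 0 of the 9 genes within 90 min, where 1.25% of all tested genes were called, and for 0 at 16 h, where 0.399% were. Median log2 changes of density over the 9 genes were -0.22 within 90 min and -0.02 at 16 h, beside -0.05 and 0.07 over all tested genes. At an unadjusted p under 0.05, 2 of the 9 genes (Mcl1 and Cflar) passed within 90 min and 0 at 16 h. DESeq2 called 0 within 90 min and 0 at 16 h.

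Cflar had the lowest density level of the set, and its density was lowest at 30 and 45 min. Its density was 0.373 (0.296 to 0.467) untreated, 0.301 (0.236 to 0.382) at 15 min, 0.180 (0.146 to 0.221) at 30 min and 0.223 (0.197 to 0.251) at 45 min. From 60 min it was 0.381 (0.349 to 0.415), 0.389 (0.355 to 0.426) and 0.362 (0.330 to 0.397), and at 16 h 0.433 (0.396 to 0.474). The intervals at 30 and 45 min did not reach the untreated one, and those from 60 min on did. Of 6210 genes with at least 100 counts in the 4 libraries concerned, 9 including Cflar had a change in density from 0 to 30 min as low as its -1.05 log2 units, a ranking made after its values had been seen. The quadratic curve of the main test gave 0.41 ± 0.28 (adjusted p = 0.51), whereas a cubic curve gave -0.99 (adjusted p = 0.0072), the only member called with that curve, so the call depends on the shape allowed.

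Mcl1 density was also lowest at 30 min. Its density was 1.20 (1.11 to 1.29) untreated, 0.885 (0.834 to 0.939) at 30 min and 0.967 (0.922 to 1.01) at 45 min, and 1.27 (1.22 to 1.33) at 90 min. Of the 6210 genes, 5.46% had a change from 0 to 30 min as low as that of Mcl1. The fitted change within 90 min was -0.27 ± 0.13 (adjusted p = 0.3). For Bcl2l11 the density was 0.845 (0.557 to 1.27) untreated and 0.463 (0.327 to 0.647) at 45 min, intervals that overlap, and it was 1.11 (0.934 to 1.33) at 16 h; the fitted change within 90 min was -0.74 ± 0.32 (adjusted p = 0.62).

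**Figure D3:**
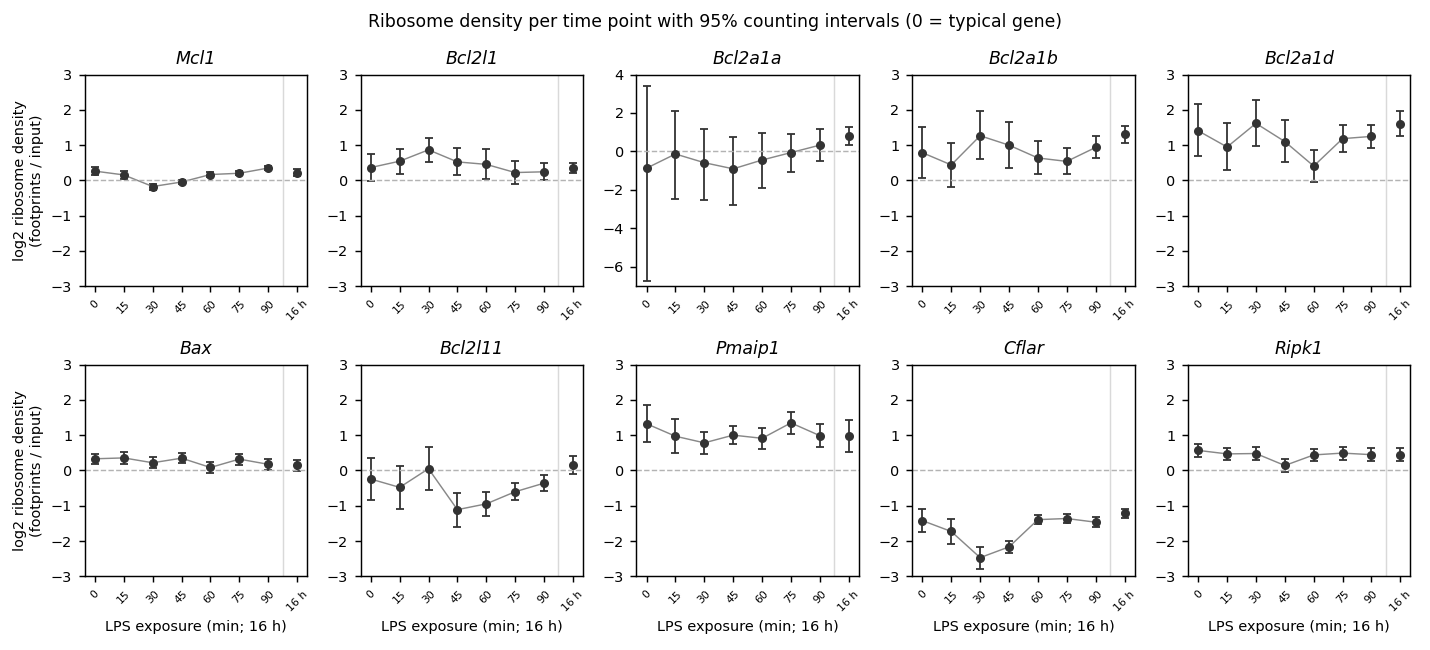
Log2 ribosome density (footprints over input, 0 for the typical gene) of each gene at the 8 times, 1 pair of libraries per point; bars are 95% counting intervals, and the axis for Bcl2a1a is wider. Cflar lies lowest and dips to a density of 0.180 at 30 min, while Pmaip1 and Bcl2a1d lie above 0.

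The level of density, averaged over the 8 times, ranged from -1.60 to 1.19 log2 units among the 9 genes. If input was counted over untranslated regions too, these levels also depend on the length of those regions. It was called for all 9 tested genes, 7 higher and 2 lower than the typical gene, where 43.7% of all tested genes were called higher and 41.5% lower. Bcl2a1d stood at 1.19 log2 units (adjusted p = 2.7e-08), Pmaip1 at 1.02 (adjusted p = 3.2e-10) and Bcl2a1b at 0.90 (adjusted p = 2.6e-07). Ripk1 (0.44), Bcl2l1 (0.42) and Bax (0.25) lay nearer the typical gene, and Mcl1 at 0.14 (adjusted p = 0.026). Bcl2l11 stood at -0.44 (adjusted p = 0.0018) and Cflar at -1.60 (adjusted p = 1e-10). With total-count scaling, which moves the median of all genes by -0.22, the calls of Bax (0.03, adjusted p = 0.6) and Mcl1 (-0.08, adjusted p = 0.21) were lost. The Mcl1 call was also lost without the 60, 75 or 90 min libraries or without the time point as a block.

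Footprints per coding length allow the genes to be set side by side as a measure of synthesis. Counts were divided by the codons of the longest annotated reading frame and given per 100 codons, on the assumption, not stated in the labels, that footprint counts come from coding sequence. In untreated cells Mcl1 stood at 454 and Bax at 436 footprints per 100 codons, followed by Pmaip1 at 100.0, Ripk1 at 90.1, the 3 Bcl2a1 copies together at 59.9, Bcl2l1 at 57.9, Bcl2l11 at 22.4 and Cflar at 21.7. The counting intervals of Mcl1 (431 to 478) and Bax (407 to 466) overlap, as do those of Bcl2l11 (16.3 to 30.1) and Cflar (17.7 to 26.3). The level and rank of the Bcl2a1 copies also depend on how reads with several matches were counted, which is not stated. The same holds for Bax and Cflar, with 69.89% and 60.04% of their 29 nt stretches unique to them.

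The pro-survival genes (Mcl1, Bcl2l1 and the Bcl2a1 copies) summed to 572 footprints per 100 codons untreated, 1826 at 90 min and 1531 at 16 h. The pro-death genes (Bax, Bcl2l11 and Pmaip1) summed to 558, 691 and 596. The ratio of these sums, taken within a library and so free of scaling between libraries, was 1.02 untreated and 1.23, 1.26, 1.42, 2.32, 2.20 and 2.64 from 15 to 90 min, and 2.57 at 16 h. It was above 2 in all libraries from 60 min on. The level of the ratio depends on how reads with several matches were counted, for Bax as for the Bcl2a1 copies. The ratio covers 8 genes chosen with the results known, and no other BCL2 relative enters it. Among those left out are Bak1, which encodes BAK, and Bid, with 645 and 643 footprint counts at 16 h beside 679 for Bax. Bak1 footprints were called higher at 16 h (0.53, adjusted p = 0.0025), and Bid footprints were not (0.33, adjusted p = 0.11). Of the further pro-survival relatives, 0 could be tested. The ratio is therefore not a balance of the whole family.

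What made up the pro-survival sum changed between 90 min and 16 h. Mcl1 gave 79.4% of it untreated, 77.7% at 90 min and 42.8% at 16 h. The Bcl2a1 copies gave 10.5%, 15.5% and 30.9%, and Bcl2l1 10.1%, 6.79% and 26.2%. All these pro-survival shares depend on how reads matching several Bcl2a1 copies were counted, which is not stated. On the pro-death side Bax gave 78.1% untreated, 49.2% at 90 min and 59.3% at 16 h. Pmaip1 gave 17.9% untreated and 45.8% at its 45 min peak, and Bcl2l11 gave 4.02% untreated and 20.8% at 90 min. These pro-death shares likewise depend on how reads with several matches were counted, since Bax shares part of its sequence with Gm45808.

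**Figure D4:**
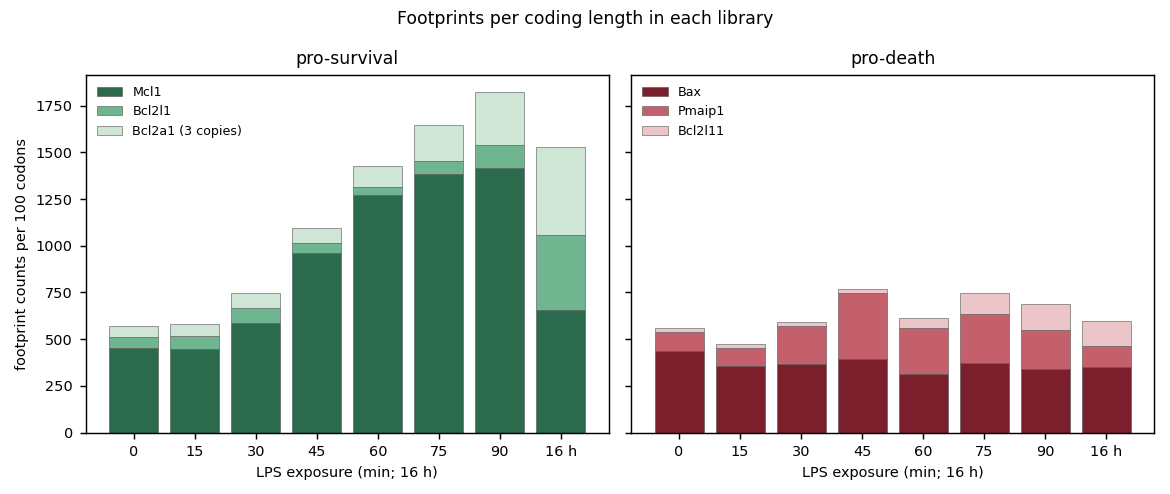
Footprint counts per 100 codons in each library, stacked by gene, for pro-survival genes (left) and pro-death genes (right); bars start at 0 and each is 1 library. The pro-survival sum, as counted, went from 572 untreated to 1826 at 90 min, and at 16 h Mcl1 made up 42.8% of it.

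Further genes of cell death were called in both directions, as were genes at large. From 7 lists of 50 further genes, 47 had a row and 34 could be tested, and within 90 min the input RNA of 6 rose (17.6%) and that of 5 fell (14.7%), where 14.9% of all tested genes were called higher and 11.3% lower. In footprints 5 rose (14.7%) and 6 fell (17.6%), where 12.2% of all tested genes were called higher and 8.3% lower. At 16 h input of 11 was higher (32.4%) and of 7 lower (20.6%), beside 28.6% and 27% of all tested genes. Footprints of 13 were higher (38.2%) and of 6 lower (17.6%), beside 25.9% and 24.2%. The median log2 changes of the 34 genes were -0.08 and -0.04 within 90 min and 0.15 and 0.13 at 16 h, for input and footprints. The early counts depend on single libraries: leaving out 1 time gave 3 (without 90 min) to 8 input rises and 1 (without 75 min) to 6 input falls, with 3 falls without the 0, 15, 45 or 90 min library. In footprints it gave 2 (without 15 min) to 5 rises, with 3 without the 0, 45, 60, 75 or 90 min library, and 2 (without 0 min) to 6 falls, with 3 without the 15, 75 or 90 min library. Total-count scaling gave 5 rises and 10 falls in input and 2 and 13 in footprints within 90 min, and 8 and 11 in input at 16 h, where DESeq2 gave 7 higher and 6 lower in footprints.

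Birc3, which encodes the ubiquitin ligase cIAP2 that modifies RIPK1, had the largest rise of these 34 genes within 90 min. Its input count was 380 untreated, 1690 at 60 min and 1052 at 16 h, and its footprint count 203, 1025 and 784. It rose by 2.55 ± 0.26 for input (adjusted p = 0.00013) and by 2.89 ± 0.33 for footprints (adjusted p = 0.00026) within 90 min. Of the 5 inhibitor of apoptosis genes tested, it was the only one called higher in input within 90 min, where 14.9% of all tested genes were. Footprints of Xiap and Birc5 fell (-0.55, adjusted p = 0.035, and -0.39, adjusted p = 0.043), where 8.3% of all tested genes did. These falls were lost under 8 and 9 alternatives. At 16 h input of Xiap was higher (0.86, adjusted p = 0.00018) and that of Birc6 lower (-0.64, adjusted p = 3.5e-05). Birc5, which encodes survivin and acts in cell division, fell by 16 h, from 569 to 129 input counts and from 965 to 214 footprint counts (log2 -1.95 ± 0.17, adjusted p = 2.2e-06, and -2.08 ± 0.14, adjusted p = 2.4e-07).

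Among BH3-only and other BCL2 relatives, 2 of 7 tested genes (Bbc3 and Bcl2l13) rose and 2 (Bid and Bnip3) fell in input within 90 min, where 14.9% and 11.3% of all tested genes did. Bid (-0.49, adjusted p = 0.035) and Bnip3 (-0.48, adjusted p = 0.035) both lost their call without the 15 or the 75 min library or with the square root of time, and each did so under 6 alternatives. The call of Bcl2l13 (0.50, adjusted p = 0.033) was lost under 7 alternatives, among them leaving out the 0, 15, 45 or 90 min library. Bbc3, which encodes the BH3-only protein PUMA, had 18 input counts untreated, 44 at 90 min and 63 at 16 h. It rose by 1.60 ± 0.29 for input (adjusted p = 0.0063) and by 1.29 ± 0.34 for footprints (adjusted p = 0.041, lost under 10 alternatives that gave 0.78 to 1.46). At 16 h Bbc3 stood 2.10 ± 0.32 and 2.39 ± 0.34 above the fitted untreated level (adjusted p = 0.00021 and 0.00012). Bag3, a co-chaperone listed with MCL1 turnover, rose by 0.85 ± 0.19 for input (adjusted p = 0.017, lost without the 75 or the 90 min library) and by 1.05 ± 0.13 for footprints (adjusted p = 0.00044).

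The largest fall among these 34 genes within 90 min was that of a caspase in each material. Casp9, the caspase of the apoptosome, went from 262 to 153 input counts (log2 -0.81 ± 0.14, adjusted p = 0.0039) and was back at 264 at 16 h. Casp2 went from 249 to 100 footprint counts at 90 min (log2 -1.02 ± 0.14, adjusted p = 0.00086). Of the 9 tested genes of the apoptosome, caspase and mitochondrial list, 2 (Casp9 and Casp2) fell and 0 rose in each material within 90 min, where 11.3% of all tested genes fell in input and 8.3% in footprints. The input call of Casp2 (-0.74, adjusted p = 0.017) was lost without the 0 or the 75 min library, and the footprint call of Casp9 (-0.72, adjusted p = 0.019) without the 0, 75 or 90 min library, which left 1 call in each case.

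Of the 8 tested death receptor and necroptosis genes, 5 were higher and 0 lower in each material at 16 h, where 28.6% of all tested genes were called higher in input and 25.9% in footprints. In input the calls of Tradd (0.50, adjusted p = 0.046) and Tnfrsf1a (0.45, adjusted p = 0.041) were each lost under 6 alternatives, and 3 of the 5 calls were left without the 45 or the 75 min library. With total-count scaling 3 were higher and 2 lower in input, and DESeq2 called 3 higher in each material. Within 90 min 1 fell in input, where 11.3% of all tested genes did. Footprints of 1 rose and of 1 fell, where 12.2% and 8.3% did. The input fall (Cyld, adjusted p = 0.034) was lost under 9 alternatives. The footprint rise (Ripk3, adjusted p = 0.044) was lost under 12 and the footprint fall (Tnfrsf1a, adjusted p = 0.0037) under 1. Mlkl, the pore-forming protein of necroptosis, had 193 input counts untreated, 160 at 90 min and 803 at 16 h. At 16 h it stood 2.23 ± 0.12 above the fitted untreated level for input (adjusted p = 5.5e-08) and 2.27 ± 0.14 for footprints (adjusted p = 1.9e-07). Ripk1, which acts upstream of MLKL, was not called at either period in the main test. Bcl2 itself, the founding pro-survival gene, had 6 to 12 input and 1 to 8 footprint counts and could not be tested.

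**Figure D5:**
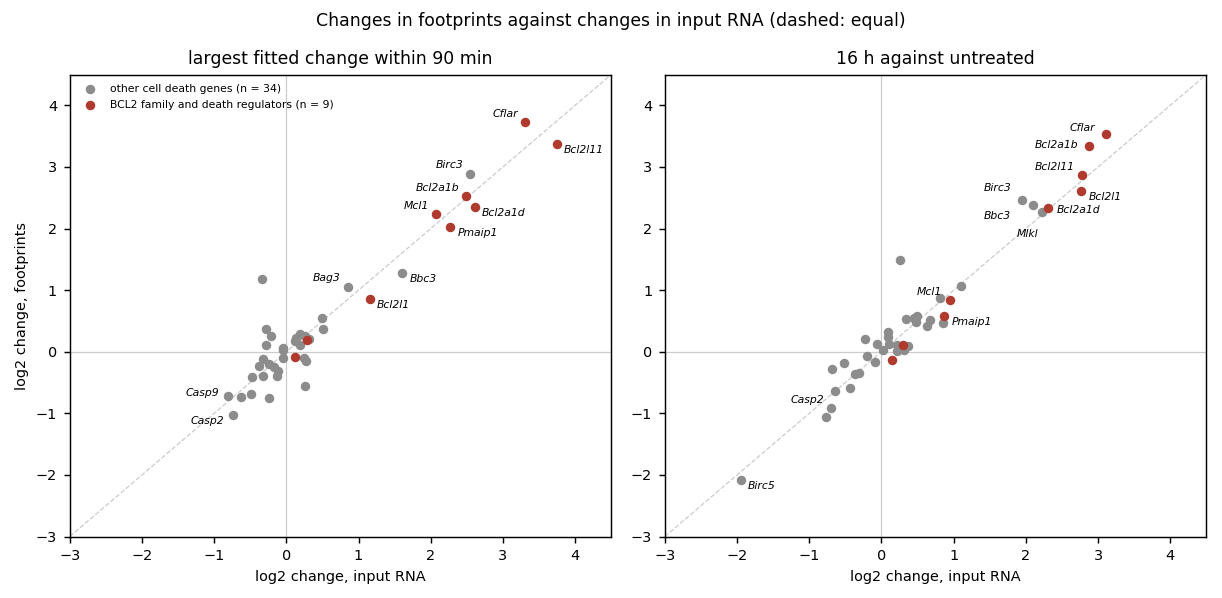
Log2 changes in footprints (y axis) against input RNA (x axis) for the 9 tested members (red) and 34 further cell death genes (grey), within 90 min (left) and at 16 h (right); the dashed line marks equal change. Birc3 (2.55 and 2.89) is the highest grey point on the left and Birc5 (-1.95 and -2.08) the lowest on the right.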

How the data were processed

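Cytoplasmic input RNA and ribosome footprints of RAW264.7 cells were each size-selected at 25 to 35 nt and sequenced, per the labels' protocols, with 1 library for each of 8 times. The authors deposited 1 table of 13832 genes with a read count per gene and library, and a normalised signal per library that the file headers label as made with DESeq2. Only the counts as deposited were used here. The submitters' processing notes name Bowtie 0.12.8, DESeq2 1.18.1 and mm10. Not given in the sources used here are the features counted, the handling of strand and of multiply matching reads, and the step that gave every library 6702930 to 6702932 counts. No value column was left unmapped.

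A gene was fitted if it had 10 or more counts in 4 or more of the 8 input and of the 8 footprint libraries. Fits used edgeR 4.0.16 in R 4.3.3 (TMM factors, glmQLFit, glmQLFTest). The time model had linear and quadratic terms in minutes and a 16 h term, leaving 4 residual degrees of freedom, so the error is the scatter of single libraries about a smooth curve. The change within 90 min is the farthest that the curve moves from its own start at 0 min, and it can exceed the ratio of counts. The 16 h change is likewise taken from the fitted value at 0 min, so it too can differ from that ratio. At 16 h the lone library is assumed to vary like the others. Ribosome density was tested in 1 fit of the 16 libraries, blocked by time point, since input and footprints of a time share a lysate; the level model left 7 residual degrees of freedom. Nothing says that the times came from separate cultures, so p-values measure only the spread between these libraries.

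Alternatives were other scalings, no count filter, other time curves, DESeq2 1.42.0, no block, summed Bcl2a1 copies and leaving out each time. The tests were checked on simulated counts with a fixed spread and changes that grew steadily to 90 min, so a pulse or a dip was not covered. Of changes of 1 log2 unit within 90 min, 72% were recovered in input, 74% in footprints and 28% in density. At 16 h 62%, 66% and 20% were recovered. Positions and coding sequences come from GENCODE M21, start-site windows from RefSeq. The members and gene lists were chosen with earlier results of these data known. Beyond the 10 members, the text names by rule the called genes of the 7 further lists with the largest changes in each comparison; genes that could not be tested are named after their counts were seen. Sequence and position of Pmaip1 are not reported here.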

Additional observations from a re-analysis of the deposited data

How the results depend on the processing

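Adjusted p-values and counts are from edgeR unless DESeq2 is named. With 1 library per time, an error rests on the scatter about a curve, and the equal totals hide the original depth, so changes in density, and not only small ones, may go undetected. For input, footprints and density level, 654 values of single members under an alternative kept their direction and side of the threshold, 18 lost their call, 3 gained one and 9 changed sign; of the density changes 265 kept theirs and 32, all but 1 uncalled, changed sign. The cause of these shifts was not tested.

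Total-count scaling gave 988 higher and 1866 lower genes in input within 90 min (against 1419 and 1074), 738 and 2610 in footprints (1160 and 791; 3348 in all against 1951), and 94 and 48 in density (106 and 13). At 16 h it gave 2129 and 3362 in input (2722 and 2573), and in density level 3070 and 4812 (4166 and 3950). It moved the median of all genes by -0.14, -0.25, -0.15, -0.16 and -0.22 in these 5 comparisons. Under it Bax input was -0.036 within 90 min and -0.018 at 16 h, Ripk1 footprints -0.12, Cflar density -0.35 and the Mcl1 density level -0.081.

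Genes called for a density change within 90 min were 61 with a linear term against 119, and 1 member (Cflar) was called with a cubic term against 0. At 16 h DESeq2 called 25 and the fit without the time point as a block 24, against 38. With a linear term the density change within 90 min was 0.16 for Mcl1, 0.042 for Bcl2a1b and 0.078 for Pmaip1; at 16 h Mcl1 density was 0.18, and Pmaip1 -0.12 in input and -0.13 in footprints. With the square root of time it was 0.043 for Bcl2a1b, 0.33 for Bcl2l1 and -0.66 for Cflar, and 0.010 for Bcl2l1 at 16 h. The cubic term gave 0.38, 0.40 and -0.99, and 0.035. DESeq2 gave 0.020 for Bcl2a1b and -0.45 for Cflar, and without the block Bcl2a1b was 0.027. Apart from the Mcl1 density level, dropping the block changed no member's call. No paired analysis was possible beyond this block because the groups hold 1 library each and carry no replicate numbers.

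Leaving out 1 time gave 1541 (without 90 min) to 2755 genes in input and 1285 (without 90 min) to 2278 in footprints within 90 min. In density it gave 0 (without 0 min) to 308 (without 30 min), and at 16 h 23 (without 15 or 75 min) to 122 (without 30 min), with 115 without 0 min. Bax footprints ranged from -0.16 to 0.10 within 90 min and from -0.19 to 0.0059 at 16 h. Density changes within 90 min ranged from -0.35 to 0.38 for Mcl1, -0.21 to 0.31 for Bcl2a1b, -0.44 to 0.33 for Bcl2l1, -0.43 to 0.34 for Pmaip1 and -0.64 to 0.92 for Cflar. At 16 h they ranged from -0.049 to 0.038 for Mcl1, -0.027 to 0.30 for Bcl2a1d and -0.31 to 0.021 for Pmaip1.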

Other observations

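Zbp1 and Fas, of the wider cell death lists, missed the filter on low counts and were not tested; they are named here after their late counts had been seen. Zbp1, which encodes a nucleic acid sensor that can engage RIPK3, had 1 input count in untreated cells, 0 to 3 from 15 to 90 min and 1024 at 16 h. Footprints numbered 3 in untreated cells, 1 to 5 from 15 to 90 min and 1860 at 16 h. The 16 h to untreated ratio was 1141 (204 to 45117) in input and 667 (228 to 3238) in footprints, where the width of the intervals comes from the few untreated counts. Fas, the receptor of FAS ligand, had 0 input counts untreated, 18 at 90 min and 86 at 16 h, which is at least 31.9-fold higher at 16 h against a floor of 3 counts in the untreated library. Footprint counts at these times were 5, 17 and 99, a 16 h to untreated ratio of 21.3 (8.83 to 67.1).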
